A study of Rattus norvegicus and Mus musculus with 34 samples.

Results

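A panel of 10 genes that respond to cAMP was followed in macrophages and in healing tissue. It held Rgs2, Nr4a1, Nr4a2, Nr4a3, Crem, Fos, Pde4b, Per1, Sik1 and Dusp1. The genes were listed by name, as known targets of cAMP and of the transcription factor CREB, and not by their values in these samples. Earlier results of these data were known when the list was made. All 10 were found by symbol in the mouse macrophage table, among 51912 genes, and all 10 in the rat tables, among 20022 genes. The mouse samples were RAW 264.7 cells, an established mouse macrophage line, exposed for 6 h to 100 ng/ml lipopolysaccharide (LPS, a bacterial wall component that activates macrophages) alone in 6 samples or with 10 nM calcitonin gene-related peptide (CGRP, a neuropeptide of sensory nerves) in 5 samples. Every one of these 11 samples received LPS, so a level without stimulation was not measured. The rat samples were the tissue inside a bone defect of the mandible in 23 male Sprague-Dawley rats of 6 to 8 weeks, taken 3, 7 or 14 days after surgery. In sensory nerve+ rats the inferior alveolar nerve, the sensory nerve of the lower jaw, was intact, and in sensory nerve- rats a segment of about 5 mm had been removed. Each group held 4 rats, except 3 sensory nerve+ rats at day 3.

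The CGRP receptor is a complex of Calcrl with the accessory protein Ramp1, and it is known to act through the stimulatory G protein Gnas and adenylyl cyclases, which make cAMP. cAMP activates protein kinase A, which phosphorylates CREB, and CREB bound to the cAMP response element then induces a set of early genes. Several of these genes act as brakes: Pde4b breaks down cAMP, Crem yields a repressor that competes with CREB, Sik1 holds back CREB's coactivators, Rgs2 dampens G protein signaling and Dusp1 dephosphorylates MAP kinases. LPS induces many of the same genes through other pathways, and many early genes are known for brief induction.

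Depth differed between the experiments. The rat libraries held 14854389 to 18742274 counts and the macrophage samples 55614185 to 71538840 reads over both sequencing runs. Levels are given as CPM, counts scaled to a common library total, after TMM scaling for differences in composition between libraries. The sources used here do not say that macrophage samples of 1 group came from separate cultures, so the p-values measure the spread between these samples, which may be technical. The macrophage marker list, of 6 genes, summed to 9486 to 10010 CPM in the 11 samples of the line, against at most 1.06 CPM for the 6 skeletal muscle markers. The sensory nerve- rats of day 7 came in a table of their own, so at that day the table cannot be told apart from the transection, and within sensory nerve- rats it cannot be told apart from day 7.

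The receptor side was examined first in the macrophages. Calcrl, the membrane-spanning subunit of the receptor, stood at 336 to 366 CPM in the 6 samples with LPS and at 343 to 361 CPM in the 5 with LPS and CGRP. Ramp1, the partner that gives Calcrl its affinity for CGRP, was at 0 reads in 11 of 11 samples, which allows at most 0.0419 to 0.0539 CPM per sample at a floor of 3 reads, for counting error only. Ramp2 and Ramp3, which turn Calcrl into receptors for adrenomedullin, had 2 to 13 reads and 0 to 1 reads per sample. Gnas was at 382 ± 4.13 CPM (SD, n = 6) with LPS and 378 ± 3.61 CPM (n = 5) with LPS and CGRP, and the cyclase Adcy7 at 418 ± 6.79 and 421 ± 6.10 CPM. Ramp1 was thus not detected with the authors' annotation and counting, while Calcrl, Gnas and Adcy7 were each at 336 CPM or more. Whether the cell line or the annotation gave the 0 reads was not tested.

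The question put to the macrophages was whether CGRP changed the cAMP and CREB target genes at 6 h. With limma and Benjamini-Hochberg adjustment, 0 of the 9 members that could be tested passed an adjusted p of 0.05, and 2 of 11899 genes did (0.0168% called). The authors list DESeq2 among their packages and report many more differentially expressed genes at that threshold. DESeq2 on recovered reads called 0.759% of 8437 genes lower here. The reason for the difference from the authors' count was not tested. At an unadjusted p under 0.05, 2 of 9 members and 1287 genes (10.8%) lay below the threshold. The median log2 fold difference of the members was -0.02, beside 0.00 for all genes tested, and 3 of 9 members were higher with CGRP. The tenth, Nr4a3, was listed with 3 to 11 reads per sample and fell under the low-value filter. The number of members whose groups did not overlap was 0 of 9, against 1.18% of all genes tested.

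**Figure D1:**
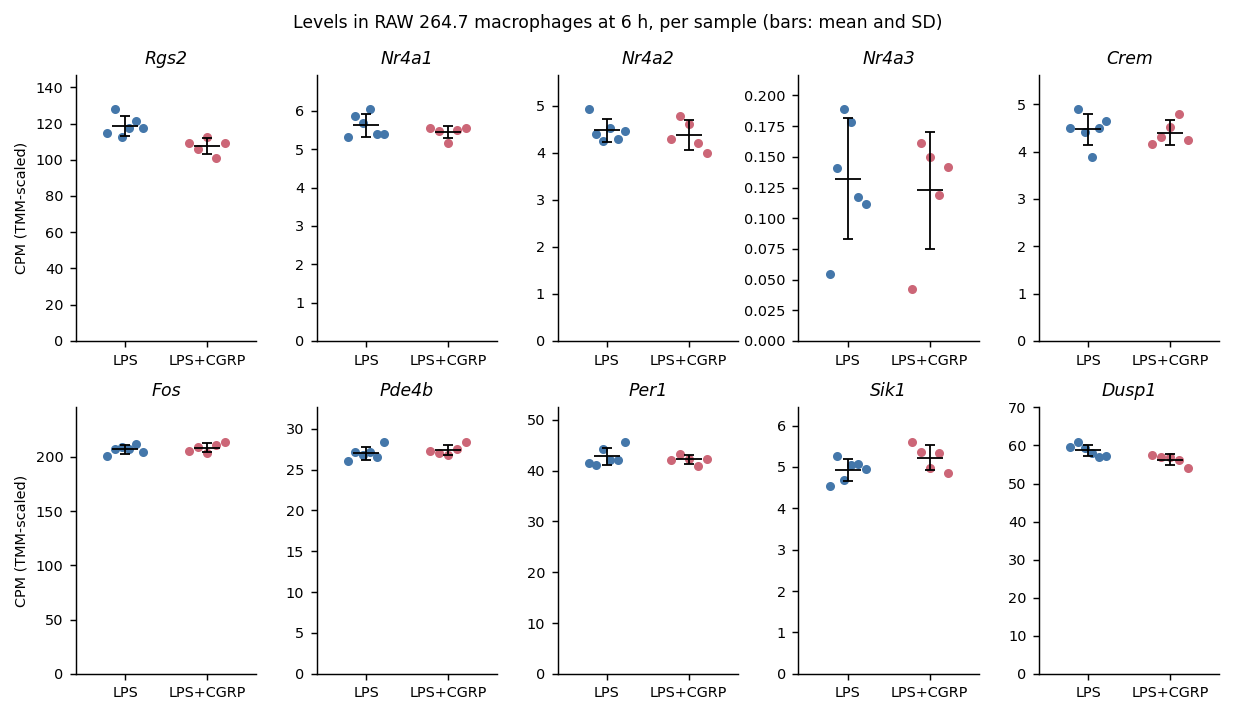
Levels of the 10 genes in RAW 264.7 macrophages at 6 h. Each point is 1 sample in TMM-scaled CPM (linear axis from 0), 6 with LPS and 5 with LPS+CGRP, and black bars give the mean and SD. The groups overlap for every gene, and the largest offset between means is that of Rgs2, 119 against 108 CPM.

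Rgs2, a GTPase-activating protein that shortens signaling by G proteins, had the smallest p of the members. Its gene (ENSMUSG00000026360) lies at chr1:143999338-144004161 on the minus strand of GRCm38/mm10. With LPS it stood between 112 and 128 CPM (median 118, n = 6), and with LPS and CGRP at 109, 106, 112, 100.7 and 109 CPM. The highest CGRP sample and the lowest LPS sample met at 112 CPM, and the other 4 CGRP samples lay under all LPS samples. The log2 fold difference was -0.14 (SE 0.03, 95% interval -0.20 to -0.07), or 0.908-fold, with a limma adjusted p of 0.121. It passed the threshold under 2 of 12 alternatives. DESeq2 on recovered reads, which called 0.759% of genes lower, gave an adjusted p of 0.00419, and limma with each run as a sample, which called 1.4% lower, gave an adjusted p of 0.0019. The latter was added after the data had been seen, and it counts 22 runs of 11 samples as if they were independent. Over the 12 alternatives that kept all samples, the log2 fold difference lay between -0.15 and -0.13 and the adjusted p between 0.0019 and 0.315.

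Dusp1, a nuclear phosphatase that switches off p38 and JNK, was the second member with an unadjusted p under 0.05 (0.0118, limma). It lies at chr17:26505590-26562128, minus strand. With LPS it measured 57.0 to 60.9 CPM (median 58.6), and with LPS and CGRP 57.4, 57.0, 57.0, 56.1 and 54.0 CPM. The groups overlapped between 57.0 and 57.4 CPM, and 1 CGRP sample lay above the 2 lowest LPS samples. Its log2 fold difference was -0.06 (SE 0.02, 95% interval -0.10 to -0.02), with a limma adjusted p of 0.354.

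The 95% intervals of the other 7 tested members included 0. Sik1, a kinase that restrains CREB's coactivators (chr17:31844250-31855804, minus strand), was at 4.55 to 5.26 CPM with LPS and at 4.85 to 5.602 CPM with CGRP, a log2 fold difference of 0.08 (95% interval -0.02 to 0.18). Fos, a subunit of the AP-1 factor (chr12:85473890-85477273, plus strand), was the most precise, at 207 ± 3.85 and 209 ± 4.20 CPM with an interval of -0.02 to 0.05. Pde4b, a cAMP-specific phosphodiesterase (chr4:102087543-102607259, plus strand), gave -0.03 to 0.07, and Per1, a clock gene with response elements for cAMP (chr11:69095217-69109960, plus strand), gave -0.07 to 0.04. Nr4a1, an orphan nuclear receptor (chr15:101254269-101274795, plus strand), gave -0.13 to 0.05, Nr4a2 (chr2:57106830-57124003, minus strand) gave -0.14 to 0.08, and Crem gave -0.13 to 0.09. Over the 9 tested members, the widest bounds were 0.869-fold and 1.13-fold, so a difference of more than 13.2% upward or 13.1% downward lay outside the 95% interval of each tested member.

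**Figure D2:**
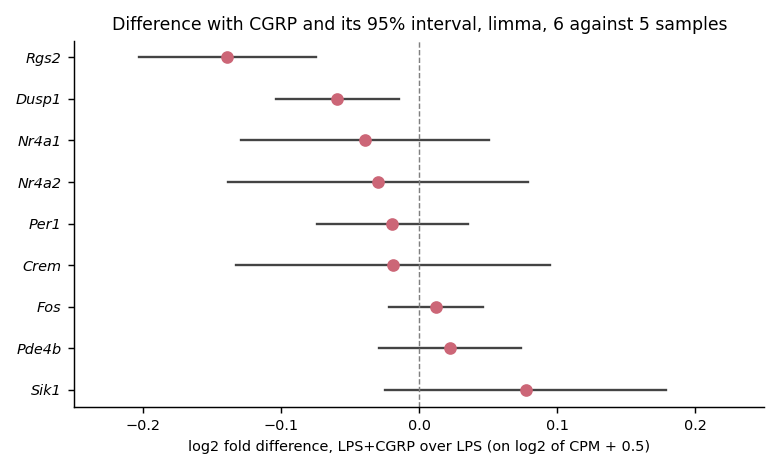
Log2 fold differences of the 9 tested members, LPS+CGRP over LPS, from limma on log2 of CPM plus 0.5. Points are estimates and lines are 95% intervals. The intervals of Rgs2 (-0.20 to -0.07) and Dusp1 (-0.10 to -0.02) lie below 0, the other 7 include 0, and the adjusted p of Rgs2 was 0.121.

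The panel's genes stood at very different levels in the activated line. Per kilobase of annotated exon, levels with LPS were highest for Fos at 88.0 ± 1.64 CPM per kb (SD, n = 6), followed by Rgs2 at 32.7 ± 1.51 and Dusp1 at 17.7 ± 0.462. Per1 followed at 7.60 ± 0.311 and Pde4b at 2.56 ± 0.0755 CPM per kb. Nr4a1 (1.601 ± 0.0833), Nr4a2 (1.103 ± 0.0602), Sik1 (0.960 ± 0.0514) and Crem (0.759 ± 0.0558) were lower, and Nr4a3 (0.022 ± 0.00823, chr4:48045153-48086447, plus strand) was lowest. The order was the same with CGRP, from 88.7 CPM per kb for Fos to 0.0205 for Nr4a3. Of the neighbors in that order, Nr4a2 and Sik1 with CGRP, at 1.08 ± 0.0779 and 1.02 ± 0.0602 CPM per kb, differed by less than the SD of Nr4a2.

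Other genes of the pathway gave 0 calls with limma. Passing were 0 of 5 tested receptor and cyclase genes, 0 of 11 protein kinase A and Epac genes, 0 of 12 CREB and coactivator genes, 0 of 9 further phosphodiesterases, 0 of 12 further CREB targets, 0 of 17 other early genes and 0 of 13 relatives of Rgs2 and Dusp1. Their median log2 fold differences lay between -0.02 and 0.01. The further CREB targets had 4 of 12 genes at an unadjusted p under 0.05. Those with the smallest p were Rgs16, a G protein regulator, at 55.3 ± 2.01 CPM with CGRP and 59.8 ± 2.29 without (adjusted p = 0.167, limma), and Odc1, the first enzyme of polyamine synthesis, at 1126 ± 21.9 and 1176 ± 23.9 (adjusted p = 0.198). Among the relatives of Rgs2 and Dusp1, Dusp5 was at 81.3 ± 0.909 CPM with CGRP and 85.1 ± 1.74 without, and Rgs1 at 83.7 ± 2.34 and 89.4 ± 3.01 (adjusted p = 0.187 and 0.189, limma). Of the early genes, the AP-1 subunit Jund differed by -0.06 and the stress-induced Atf3 by -0.11 on the log2 scale.

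Upstream of these targets, the genes with the smallest p in their lists were Gnas (-0.02 on the log2 scale) and the cyclase Adcy9 (0.06), the kinase anchor Akap8 (0.06) and the kinase subunit Prkar2b (0.04), the factors Atf1 (0.03) and Creb1 (0.04), and the phosphodiesterases Pde8a (0.04) and Pde4c (-0.11). Their limma adjusted p lay between 0.378 for Akap8 and 0.693 for Adcy9. Pde4c was near the filter, at 0.499 ± 0.0617 CPM with CGRP and 0.580 ± 0.0750 without.

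In the rats, the comparison was of the same genes in healing tissue with and without the sensory nerve. In bulk tissue, fewer cells of a type and less RNA per cell cannot be told apart. edgeR's quasi-likelihood test called 0 of 10 members at day 3, 0 of 10 at day 7 and 0 of 10 at day 14, and over all genes it called 0% at each of these days, with 122, 215 and 1362 genes at an unadjusted p under 0.05. DESeq2 also called 0 members at each day. In 0 of 10 members did the groups separate at day 3, day 7 or day 14, against 1.61%, 0.775% and 3.35% of all genes. The median log2 fold difference of the members was -0.18 at day 3, 0.12 at day 7 and -0.15 at day 14, beside -0.01, -0.01 and 0.03 over all genes.

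These comparisons were wide. At day 14, Nr4a1 measured 94.2, 61.6, 57.3 and 45.1 CPM in sensory nerve+ rats and 50.6, 31.1, 51.6 and 25.4 CPM in sensory nerve- rats. The 2 highest sensory nerve- rats lay within the sensory nerve+ range, and the log2 fold difference was -0.70 (95% interval -1.41 to 0.02), with an adjusted p of 0.519 in edgeR. Nr4a3 showed the largest difference at that day, -1.36 on the log2 scale (interval -3.08 to 0.37), from 5.14, 1.097, 8.85 and 11.3 CPM with the nerve and 3.41, 1.46, 4.60 and 0.916 CPM without it. At day 7 Rgs2 alone among the members had an unadjusted p under 0.05 in edgeR (0.0358, adjusted p = 1.00), with 19.8, 16.9, 10.7 and 17.8 CPM in sensory nerve+ rats and 20.6, 19.5, 28.7 and 27.8 CPM in sensory nerve- rats. At day 3 the member with the smallest p was Pde4b, 17.9 ± 6.52 CPM (n = 3) with the nerve and 13.4 ± 2.09 (n = 4) without. The outermost bounds of the members' 95% intervals were 0.118-fold and 2.64-fold at day 14.

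The transection by day interaction, which asks whether the difference between nerve groups itself differed between days, called 0 of 10 members and 0% of 15858 genes, with 475 genes at an unadjusted p under 0.05. The smallest p of a member was that of Rgs2 (adjusted p = 0.998, edgeR). The same test gave adjusted p of 0.998 for Nr4a1 and 0.999 for Per1.

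Some of the members differed between days of healing. From day 3 to day 14, Nr4a1, Per1 and Sik1 rose in sensory nerve+ rats, and these 3 with Pde4b and Dusp1 rose in sensory nerve- rats. The share of all genes called higher was 2.69% in sensory nerve+ rats and 8.89% in sensory nerve- rats, beside 3 of 10 and 5 of 10 members. In either direction these shares were 5.78% and 23.5%. The median log2 fold difference of the members was 1.27 and 0.92, beside 0.00 and -0.05 over all genes. Whether the change over days itself differed between nerve groups was asked by the interaction above, which called 0 members.

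**Figure D3:**
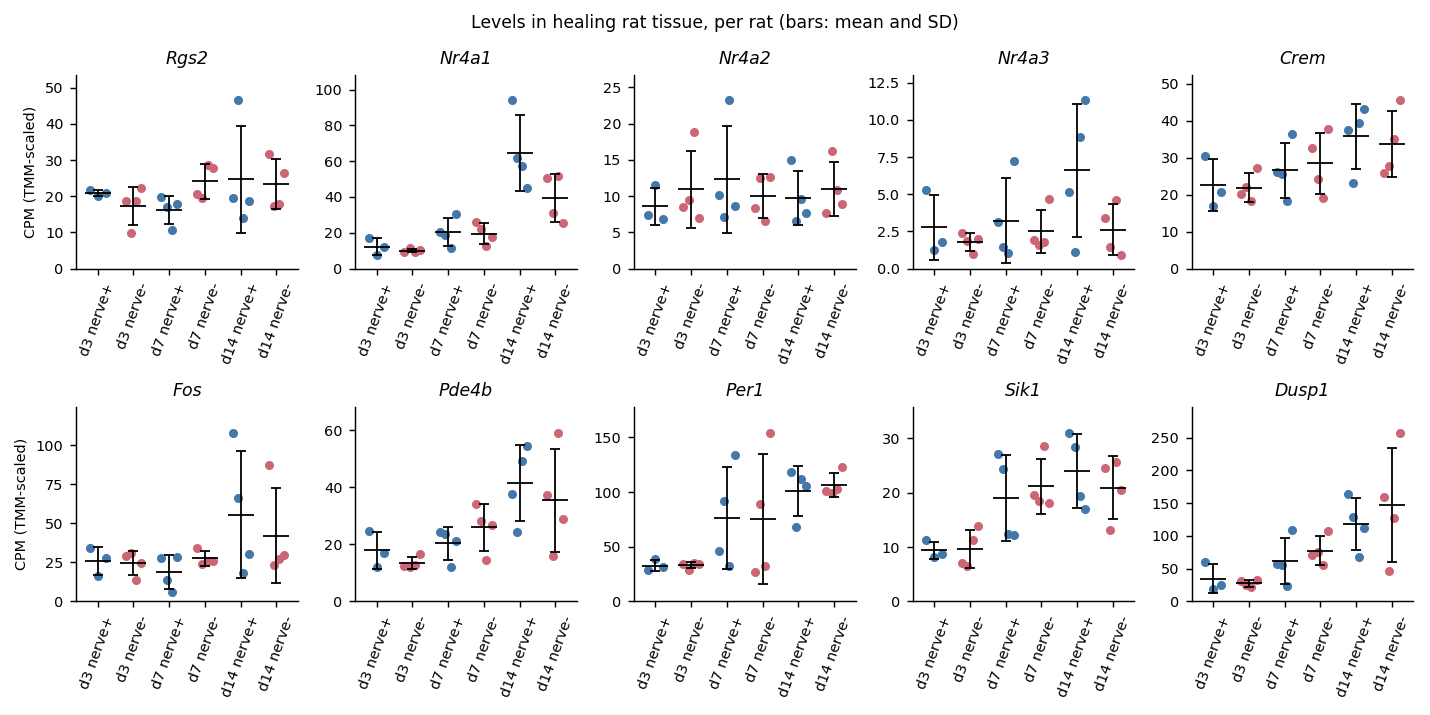
Levels of the 10 genes in healing rat tissue. Each point is 1 rat in TMM-scaled CPM (linear axis from 0), with sensory nerve+ rats in blue and sensory nerve- rats in red at days 3, 7 and 14, and black bars give the mean and SD. Nr4a1 stands at 7.50 to 17.1 CPM in all day 3 rats and at 25.4 to 94.2 CPM in all day 14 rats, while Nr4a2 overlaps between days.

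Nr4a1 had the largest difference of the members with the nerve intact. It measured 17.1, 7.50 and 11.9 CPM at day 3, 20.6, 18.7, 11.7 and 30.7 CPM at day 7 and the values given above at day 14, a log2 fold difference of 2.44 between days 14 and 3 (SE 0.36, adjusted p = 0.0291, edgeR). In sensory nerve- rats it measured 9.34, 11.4, 9.14 and 10.4 CPM at day 3 and 26.3, 21.9, 12.5 and 17.5 CPM at day 7, and rose by 1.95 on the log2 scale to day 14 (SE 0.26, adjusted p = 0.00357). All day 14 rats lay above all day 3 rats in both nerve groups, as did the day 7 rats without the nerve.

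Per1, a core repressor of the circadian clock, had the smallest p of the members in both nerve groups. Its levels at day 3 were 28.6, 38.5 and 31.4 CPM with the nerve and 34.0, 28.7, 34.8 and 34.0 CPM without it. At day 14 they were 119, 67.9, 112 and 106 CPM with the nerve and 100.6, 99.4, 103 and 123 CPM without it. The log2 fold differences were 1.64 (SE 0.24, adjusted p = 0.0272) and 1.66 (SE 0.12, adjusted p = 9.05e-04) in edgeR. Day 7 split within each group, at 45.6, 92.2, 31.9 and 134 CPM with the nerve and 27.0, 88.8, 32.5 and 154 CPM without, and the hour of collection is not given in the sources used here.

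Sik1 stood at 11.2, 8.12 and 8.76 CPM at day 3 with the nerve and reached 31.1, 28.5, 19.4 and 17.0 CPM at day 14, 1.38 higher on the log2 scale (SE 0.27, adjusted p = 0.0418, edgeR). Without the nerve it went from 7.12, 6.57, 11.2 and 13.9 CPM to 24.6, 13.1, 25.7 and 20.51 CPM (1.08, SE 0.32, adjusted p = 0.0446), with an overlap of the groups. Dusp1 went from 60.3, 18.96 and 24.5 CPM to 163, 128, 68.1 and 113 CPM with the nerve, with no overlap but an adjusted p of 0.0654 in edgeR. Without the nerve it went from 31.0, 24.8, 22.3 and 33.2 CPM at day 3 to 70.7, 75.7, 55.5 and 108 CPM at day 7 and to 159, 46.8, 127 and 258 CPM at day 14, and both steps from day 3 passed (adjusted p = 0.014 and 0.0108). Pde4b was at 12.4, 12.1, 12.6 and 16.5 CPM at day 3 and at 37.3, 16.0, 59.1 and 28.9 CPM at day 14 in sensory nerve- rats (log2 fold difference 1.37, SE 0.37, adjusted p = 0.0312, edgeR), and was 1.24 higher with the nerve, where the adjusted p was 0.0779.

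The remaining members gave no call between days. Crem was at 22.6 ± 7.00 CPM at day 3 and 35.8 ± 8.79 at day 14 with the nerve (adjusted p = 0.165, edgeR) and at 21.9 ± 3.88 and 33.6 ± 8.96 without it (adjusted p = 0.0752). Fos spread widely at day 14, at 108, 65.9, 18.2 and 30.0 CPM with the nerve and 87.5, 23.5, 27.2 and 29.6 CPM without, so that its log2 fold differences of 1.13 and 0.76 did not pass. Rgs2, the member nearest to the threshold under CGRP, lay between 9.91 and 46.7 CPM over all 23 rats, and Nr4a2 between 6.58 and 23.3 CPM. In the order of the 6 group means, each pair of neighbors overlapped in range for each of the 10 members.

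Between days 3 and 7, 0 of 10 members passed with the nerve, where 6.67% of genes were called in either direction and 4.88% higher. Without the nerve 3 of 10 members were called higher at day 7 (Dusp1, Nr4a1 and Sik1), where 10.5% of genes were called in either direction and 3.68% higher. In sensory nerve- rats the day 7 values came from the separate table, so that in this comparison, and in that of day 14 with day 7, table and day cannot be told apart. Nr4a1 then stood 0.95 higher on the log2 scale (adjusted p = 0.0449, edgeR) and Sik1 1.11 higher (adjusted p = 0.0482). Between days 7 and 14, 0 of 10 members passed in either nerve group, where 0.0202% and 0.0138% of genes were called. At an unadjusted p under 0.05 there were 3 members with the nerve and 1 without, Nr4a1 among them both times. Over all genes tested, 1401 of 14867 with the nerve and 3397 of 14447 without it lay under that threshold. DESeq2 called Nr4a1 in both. Over all genes, the alternatives that kept all samples, DESeq2 among them, called at most 335 with the nerve and 1991 without it.

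**Figure D4:**
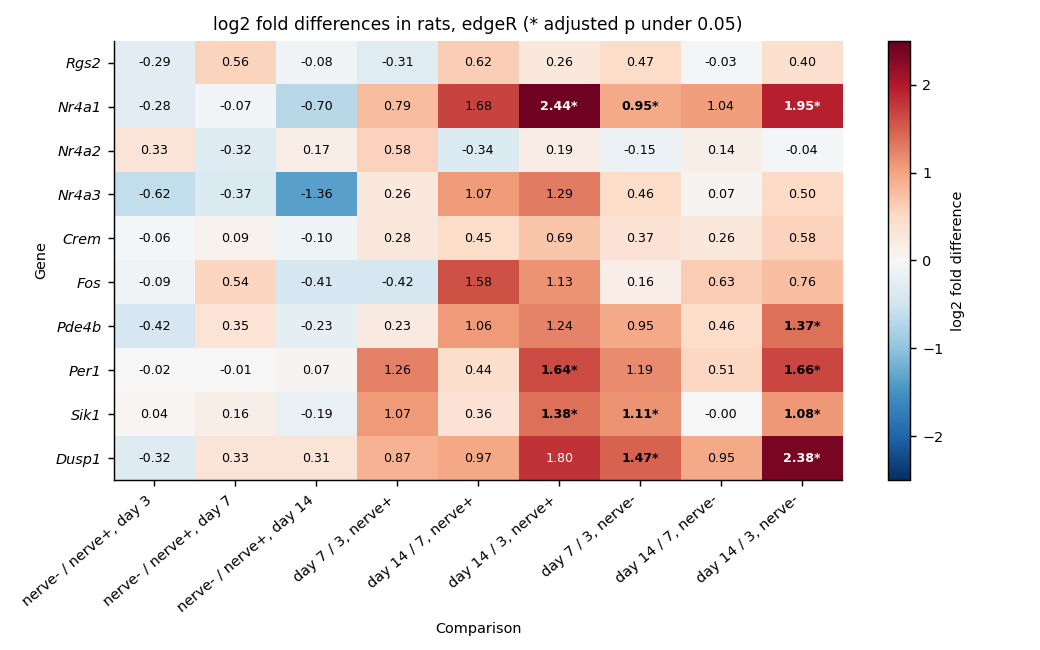
Log2 fold differences of the 10 genes in the 9 rat comparisons, from edgeR. Red is higher and blue lower in the group named first, and asterisks mark an adjusted p under 0.05. The 3 columns of sensory nerve- over sensory nerve+ hold 0 asterisks, and the columns of day 14 over day 3 hold 3 and 5, all of them red.

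Separation of single rats was common enough to be read with care. With no overlap and higher at day 14 than at day 3 were 4 of 10 members with the nerve (10.5% of all genes) and 3 of 10 without it (10.2%). In sensory nerve+ rats the count of 3 called members depended on single rats: it was 0 without replicate 1, 3 or 4 of day 14 or without replicate 3 of day 3, 1 without replicate 1 (Nr4a1) or 2 (Per1) of day 3, and 5 without replicate 2 of day 14. In sensory nerve- rats Nr4a1, Per1 and Dusp1 passed whichever rat was left out, and the count was 3 without replicate 1, 2 or 3 of day 3 or replicate 1, 3 or 4 of day 14. For day 7 over day 3 in sensory nerve- rats the count of 3 became 0 without replicate 1 of day 3 or replicate 3 of day 7, 2 without replicate 4 of day 3, and 1 without any other rat. Calls over all genes also moved with 1 rat left out. For day 14 over day 3 they went from 871 to between 0 and 3133 with the nerve. Without it they went from 3396 to between 1620 and 4346. For day 7 over day 3 without the nerve they went from 1524 to between 0 and 1359.

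The tissue changed in composition over the same days. The 6 skeletal muscle markers summed to 55.7 to 300.4 CPM at day 3 and 227 to 21571 CPM at day 14 with the nerve, and to 29.0 to 954 and 218 to 5720 CPM without it, with 4 of 6 and 1 of 5 tested markers called higher. Neutrophil markers summed to 173 to 319 and 78.2 to 5625 CPM with the nerve (0 of 6 called) and 57.9 to 722 and 143 to 4256 CPM without (2 of 6 called higher), and of the T cell markers 0 of 5 were called with the nerve and 5 of 5 were called higher without it. Of the 6 endothelial markers 0 were called with the nerve and 4 were called higher without it. Epithelial markers summed to 3.61 to 1099 CPM at day 3 and 9.52 to 18.6 CPM at day 14 with the nerve, and to 40.7 to 605 and 3.39 to 5.69 CPM without it, with 1 of 5 and 4 of 6 called lower. The heat shock list, taken as a possible sign of handling, stood at 1698 to 2703 CPM at day 3 and 1157 to 1357 CPM at day 14 with the nerve. Without the nerve it stood at 1917 to 2316 and 1067 to 1409 CPM. Most of that sum was Hspa8, with means of 2002 and 1053 CPM without the nerve. Of this list, 0 of 5 with the nerve and 2 of 5 without it were called lower. Macrophage markers summed to 4516 to 6776 CPM at day 3 and 1680 to 10473 CPM at day 14 with the nerve (median log2 fold difference -0.83, 0 of 5 called), and to 3444 to 6776 and 2846.5 to 5654 CPM without it (median -0.30), where 1 of 5 was called lower, the integrin gene Itgam (adjusted p = 0.0215, edgeR). Of the 6 fibroblast and bone markers 0 were called in either nerve group. Replicate 2 of day 14 with the nerve stood apart, with 10473 CPM of macrophage markers against 1680 to 3632 in the other 3 rats, 5625 CPM of neutrophil markers against 78.2 to 1508, and 227 CPM of muscle markers against 11251 to 21571. The part of these lists in the members' differences was not tested.

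Other genes of the pathway were also called in the same contrast. Over 7 lists, 4 of 99 genes tested were called with the nerve (3 higher, 1 lower) and 21 of 99 without it (15 higher, 6 lower), beside the 5.78% and 23.5% of all genes called in either direction. With the nerve, 2 of 13 further phosphodiesterases rose from day 3 to day 14, Pde2a from 18.0 ± 3.45 to 62.3 ± 12.1 CPM and Pde1c from 6.95 ± 0.768 to 20.52 ± 3.78 CPM, both enzymes that hydrolyze cyclic nucleotides. Of 13 further CREB targets, Bdnf, a neurotrophin, rose by 3.27 on the log2 scale and Odc1 fell by 0.70. None of 13 receptor and cyclase genes, 15 protein kinase A and Epac genes, 11 CREB and coactivator genes, 17 other early genes or 17 relatives of Rgs2 and Dusp1 was called there by edgeR. Without the nerve, 4 of 13 phosphodiesterases rose, 5 of 15 protein kinase A and Epac genes passed (3 higher, 2 lower) and 5 of 11 CREB and coactivator genes passed (3 higher, 2 lower). The coactivator genes Crebbp and Crtc2 rose by 0.70 and 0.62 on the log2 scale, and the regulatory subunit Prkar2a fell by 1.18. Among 17 other early genes, Klf2 and Btg2 rose by 1.84 and 1.89 and Egr2 fell by 1.54, so early genes did not move in 1 direction. Calcrl rose from 23.6 ± 4.98 to 51.8 ± 23.5 CPM without the nerve. Ramp1, at 0 reads in the macrophage line, was at 2.68 to 17.8 CPM in the 23 rats.

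The sequences upstream of the rat genes are shown because the cAMP response element is the feature by which such genes are recognized. Windows of 300 bases, from 250 before to 50 after the annotated start, came from RefSeq on the assembly GRCr8, a different build from the one the rat reads were aligned to, and were matched by symbol. They covered 8 of 10 members in 11 windows, with none for Fos and Nr4a3. The full palindrome TGACGTCA was in 3 of 11 windows, of Crem (2) and Dusp1 (1), and in 1.83% of all 33469 windows. A half-site, TGACG or its reverse complement CGTCA, alone or within the palindrome, was in 8 of 11 windows and in 21.2% of all. Per1 and both Pde4b windows held neither, which says only that these letters are not in this window. In the stretches below, capitals mark these letters and positions are relative to the start.
Crem, chr17:58984726-58984763, plus strand: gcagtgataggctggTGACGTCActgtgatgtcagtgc
Crem, chr17:58985440-58985477, plus strand: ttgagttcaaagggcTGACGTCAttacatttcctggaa
Dusp1, chr10:17184666-17184751, plus strand: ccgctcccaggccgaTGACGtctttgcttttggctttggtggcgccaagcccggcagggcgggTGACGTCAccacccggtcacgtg
Nr4a1, chr7:134260041-134260104, plus strand: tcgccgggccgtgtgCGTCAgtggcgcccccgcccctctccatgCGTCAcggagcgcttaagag
Sik1, chr20:9958807-9958852, minus strand: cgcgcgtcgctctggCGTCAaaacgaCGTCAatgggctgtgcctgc

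The palindromes began at -56 and -35 in the Crem stretches and at -124 in that of Dusp1. The half-sites began at -172 in Dusp1, at -82 and -53 in Nr4a1 and at -191 and -180 in Sik1. These stretches do not hold every site. The window of the second Crem stretch held a further palindrome at 40, and that of Nr4a1 held further half-sites at -246 and -226. The match of letters is a description of the reference sequence and not a measure of binding.

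Within groups, the members did not all vary together. The correlation of each member's deviation from its group mean, on the log2 scale over 23 rats, with the mean deviation of the other 9 was 0.76 for Dusp1, 0.68 for Nr4a1, 0.60 for Crem and 0.60 for Pde4b, and 0.14 for Rgs2 and -0.45 for Nr4a2. Genes outside the panel whose deviations were most like the members' mean, among 10780 genes with a mean log2 CPM of at least 3, were LOC689130 (r = 0.84), Irak2, a kinase of the Toll-like receptor pathway (0.84), Ccr7, a chemokine receptor (0.84), Sod2, a mitochondrial superoxide dismutase (0.84), and Ifrd1 (0.83). These values are descriptions, over rats that share libraries and tissue, and Ccr7 alone ranged from 0.642 to 93.8 CPM.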

How the data were processed

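RNA-seq of 23 rats and 11 macrophage samples was used as deposited. For the rats, the authors filtered reads, aligned them to mRatBN7.2 with HISAT and deposited expected counts, rounded here to integers. The authors trimmed macrophage reads with Cutadapt, aligned them to mm10 with STAR and counted with featureCounts, and the deposited signal was reads multiplied by 1 factor per run (0.877 to 1.14). Whole reads were recovered from it for 100% of nonzero values at a tolerance of 0.1. The 2 runs of a sample were summed. Because the signal is not a count, limma 3.58.1 (with trend) on log2 of TMM-scaled CPM plus 0.5, with CPM of at least 0.5 in at least 5 samples, took the place of a count test. Fold differences are on that scale, which understates low genes. Rat groups were compared by edgeR 4.0.16 (quasi-likelihood) after TMM and filterByExpr, each comparison on its own groups, in R 4.3.3. A call is a p under 0.05 after Benjamini-Hochberg adjustment over all genes tested. Alternatives were DESeq2 1.42.0, edgeR on recovered reads, other scalings, filters and pseudocounts, single runs, the replicate number as a block, 1 fit of all rats, and each sample left out. The tests were tried on simulated data.

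The members and lists were chosen with earlier results of these data known. Named list genes are the 2 with the smallest p for CGRP from each pathway list, where 0 passed, and in rats at most 2 per direction past the threshold, those with the smallest p, and marker lists are given by counts and sums. Calcrl, Ramp1 to Ramp3 and Adcy7 in the macrophages and Ramp1 in the rats were named outside this rule, after their values were seen. Mouse positions and exon lengths are from GENCODE vM21. Replicate numbers were checked for pairing: the deviations of same-numbered samples correlated above 0.1 in 2 of 5 macrophage pairs and 9 of 33 rat pairs. Among macrophage pairs of other numbers it was 3 of 25. For the transection at day 7 it was 3 of 4 same-numbered against 1 of 12 other pairs. For day 7 over day 3 without the nerve it was 0 of 4 against 3 of 12. The numbers were not taken to pair samples, and the replicate block was run as an alternative. Figures were drawn with matplotlib 3.10.9.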

Additional observations from a re-analysis of the deposited data

Results flagged for a closer look

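Among 70 sets of member values, each a gene in 1 group of 4 to 6 samples, 8 held a sample far from the others by Dixon's test, where chance gives about 1 in 20. In sensory nerve+ rats of day 14, replicate 2 had Rgs2 at 46.7 CPM, against 14.0 to 19.5 in the other 3. In sensory nerve- rats of day 14, replicate 1 had Fos at 87.5 CPM, against 23.5 to 29.6, and replicate 4 had Per1 at 123 CPM, against 99.4 to 103. In sensory nerve- rats of day 7, replicate 4 had Nr4a3 at 4.68 CPM, against 1.58 to 1.91, and replicate 3 had Sik1 at 28.6 CPM, against 18.0 to 19.6. In sensory nerve- rats of day 3, replicate 4 had Pde4b at 16.5 CPM, against 12.1 to 12.6, and replicate 2 had Per1 at 28.7 CPM, against 34.0 to 34.8. In the macrophages, replicate 3 of LPS and CGRP had Nr4a1 at 5.16 CPM, against 5.48 to 5.55.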

How the results depend on the processing

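The transection counts at days 3, 7 and 14 and the interaction stayed at 0 members under each alternative run. For CGRP the count went from 0 to 1 (Rgs2) with DESeq2 on recovered reads and to 1 with each run as a sample, and stayed at 0 with each sample left out. DESeq2 gave 1 member for day 7 over day 3 and 1 for day 14 over day 7 with the nerve, and 1 for day 14 over day 7 without it, in place of 0. For day 14 over day 3 with the nerve, the count of 3 became 5 with DESeq2, 5 with 1 fit of all rats and 0 with the replicate number as a block, and 0 to 5 with 1 rat left out. For day 7 over day 3 without the nerve, the count of 3 became 4 with DESeq2, 2 with 1 fit of all rats, 1 with scaling by the library total, 1 without a filter and 0 with the replicate block, and 0 to 2 with 1 rat left out. For day 14 over day 3 without the nerve, the count of 5 became 6 with DESeq2, 3 with the library total, 4 without a filter, 4 with the block and 3 to 5 with 1 rat left out. Fits with the block have fewer residual degrees of freedom. The block left the count at 0 for CGRP, for the transection and for the other day comparisons. Scaling by the library total moved the median of all genes by -0.37 for day 14 over day 3 and -0.39 for day 14 over day 7 without the nerve, and by -0.44 for the transection at day 14. Over all genes, the 2 calls for CGRP became 262 with each run as a sample, 75 with DESeq2, 0 with edgeR on recovered reads and 2 to 15 under the other alternatives that kept all samples. The following ranges over all genes are from alternatives that kept all samples. Calls for day 14 over day 3 went from 871 to between 0 and 3409 with the nerve. Without it they went from 3396 to between 1184 and 4925. For day 7 over day 3 they went from 1002 to between 122 and 2729 with the nerve. Without it they went from 1524 to between 2 and 3224. For day 14 over day 7 they went from 3 to between 0 and 335 with the nerve. Without the nerve they went from 2 to between 0 and 1991. The 0 calls for the transection at day 14 became at most 103. The causes were not tested. With 3 or 4 rats per group and wide intervals, and with no unstimulated macrophages and 1 time point, these counts do not show that the members were alike.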
